A study of Drosophila melanogaster with 4 samples.

Results

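Enriched regions narrower than 2000 bp made up 1483 of the 6460 autosomal regions listed for H3K4me1, the histone H3 mark with a single methyl group on lysine 4, in late embryos of Drosophila melanogaster, and 1483 of the 8219 regions listed for the whole genome. They were taken from the combined list of both replicates, on the chromosome arms 2L, 2R, 3L and 3R, and were chosen by their deposited width alone. The record listed as depleted was left out. The small autosome, chromosome 4, is outside this choice. Each region is given by its first and last base on FlyBase release 5, per the file headers. The members measured 1001 to 1999 bp, with a median of 1516 bp.

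H3K4me1 is laid down in flies mainly by the COMPASS-like methyltransferase Trithorax-related and is known from enhancers, where it flanks the site at which transcription factors bind, and from the borders of active promoters. It can mark an element before that element becomes active, and further marks such as H3K27ac are used to tell the states apart. A narrow region can hold a few nucleosomes, whereas broad domains often lie over clusters of enhancers or over transcribed developmental genes. In embryos of this age the organs are forming, muscles and nerves connect and the cuticle is laid down, and a whole-embryo sample mixes these tissues. The level in the mixture does not tell a mark in few cells from a weak mark in many.

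The series comprised 2 libraries from chromatin immunoprecipitation (ChIP) and 2 from input DNA. All came from wild-type embryos of the strain Oregon-R, collected 14 to 16 h after laying and fixed with formaldehyde, and the antibody was ab8895, in a batch named new lot 2. There is no second genotype or treatment, so the design compares replicate lists with each other, and the labels do not say whether the replicates came from separate collections. Which list is replicate 1 rests on the repository's record, since both lists carry the same experiment number. The input libraries have no list of their own and were not analysed here.

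The narrow regions accounted for 23.0% of the autosomal regions of the combined list (exact 95% interval 21.9 to 24.0) but for 6.66% of the 33.6 Mb that these regions covered. These intervals describe counting error alone and treat regions as independent, which neighbours are not. Replicate 1 listed 1076 narrow regions among 6028 on the same arms, and replicate 2 listed 1157 among 5847. The share was 17.9% in replicate 1 and 19.8% in replicate 2, or 18.8% ± 1.37 (SD, n = 2), below the combined list in each case. The lists differ in how short a region can be. The shortest autosomal region of replicate 1 measured 1302 bp and that of replicate 2 measured 1301 bp, while 32 members of the combined list measured exactly 1001 bp.

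The first question was how far each replicate list supported the members. A member counted as supported where it overlapped a region of that list by at least 1 bp. Both lists supported 150 of the 1483 members (10.1%, interval 8.63 to 11.8), against 73.8% of all autosomal regions. Replicate 1 alone supported 377 (25.4%, against 9.75% of all), and replicate 2 alone supported 149 (10.0%, against 3.17% of all). Neither list supported 807 (54.4%, interval 51.8 to 57.0), against 13.3% of all autosomal regions. Of the mid-width regions of 2000 to 9999 bp, both lists supported 3817 of 4179 (91.3%), and of the broad regions of at least 10000 bp they supported 798 of 798. Counted singly, replicate 1 overlapped 527 members (35.5%, against 83.5% of all autosomal regions) and replicate 2 overlapped 299 (20.2%, against 76.9%). Over all widths, most narrow regions were thus listed only in the combined list. This did not hold for the 1038 members of at least 1302 bp, of which 401 (38.6%) had no support. Of the 445 shorter members, 406 (91.2%) had none, and no replicate 1 region was that short. The combined list covers the same libraries, so an overlap is not independent evidence for a member, and no test was made.

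Support differed steeply with width among the members. None of the 712 members under 1500 bp overlapped both lists, and a count of 0 allows a share of up to 0.517% (upper limit of the exact interval). The narrowest member supported by both measured 1546 bp. Of the 190 members of 1000 to 1099 bp, 182 (95.8%) had no support. Of the 146 members of 1500 to 1599 bp, 1 had support from both lists and 74 (50.7%) from neither. In the last step below the bound, at 1900 to 1999 bp, both lists supported 79 of 189 members (41.8%) and neither supported 21 (11.1%). Just outside the bound, at 2000 to 2099 bp, both lists supported 115 of 177 regions (65.0%) and neither supported 10 (5.65%). Support by both lists was thus higher in each step from 1500 bp up to and across the bound, with intervals of 34.7 to 49.2% just inside it and 57.5 to 72.0% just outside. Of the members shorter than 1302 bp, a width that no replicate 1 region had, 406 of 445 (91.2%) had no support; of the 1038 members at or above it, 401 (38.6%) had none and both lists supported 150 (14.5%).

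**Figure D1:**
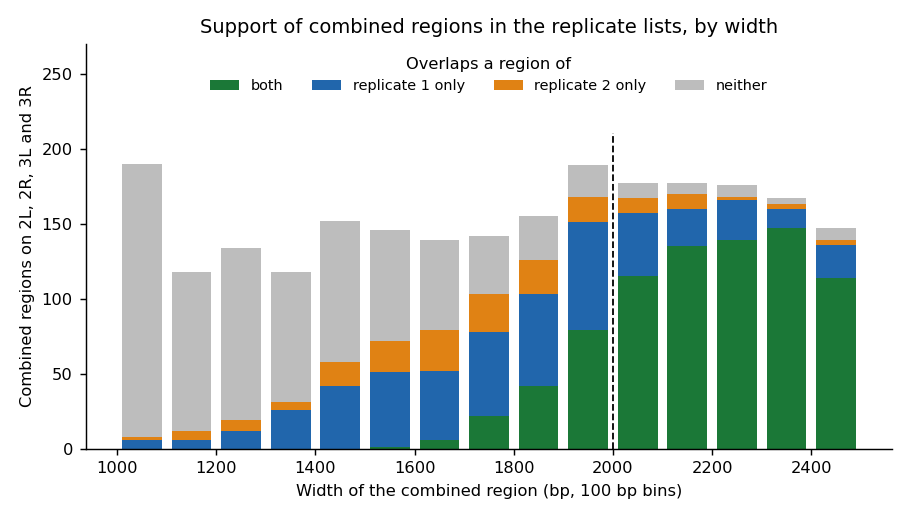
Number of combined regions on the 4 autosomal arms in bins of 100 bp of width, from 1000 to 2499 bp; the colours show which replicate lists a region overlaps and the dashed line marks the bound of 2000 bp. Regions overlapping both lists are absent under 1500 bp and reach 79 of 189 in the last bin below the bound.

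The widest members, all of 1999 bp, lay on 2L at 8448160 to 8450158, on 2L at 11514934 to 11516932 and on 3L at 15639658 to 15641656. Their combined scores were 0.37, 0.36 and 0.35, in the log2 units described below, and each overlapped both replicate lists. The narrowest regions left out measured 2000 bp on 2L at 1450957 to 1452956 and on 3L at 2461722 to 2463721, and 2001 bp on 3R at 13424708 to 13426708. Their scores were 0.37, 0.39 and 0.37. The one on 2L overlapped replicate 1 only and the others overlapped both lists.

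Where a replicate list did support a member, its own region was usually the smaller one. The partner in replicate 1 lay entirely within the member in 269 of 527 cases (51.0%) and was wider than the member in 121 (23.0%). In replicate 2 the partner lay within the member in 181 of 299 cases (60.5%) and was wider in 59 (19.7%). Partners had a median width of 1599 bp for replicate 1 and 1550 bp for replicate 2, while the members they overlapped had medians of 1783 and 1811 bp. A partner measured 2000 bp or more in 17 cases in replicate 1 and in 6 cases in replicate 2. The replicates therefore seldom showed a wide region where the combined list showed a narrow one. Among the 150 members supported by both lists, the partners overlapped each other in 150 cases and both were under 2000 bp in 149, and 1 pair began at the same base. Across these 150 members the scores of the partners had a Spearman's rho of 0.24 and a Pearson's r of 0.42, given as a description over members that share 1 pair of libraries and span a small range of scores.

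The opposite view starts from the narrow regions of each replicate list. Of the 1076 in replicate 1, 561 (52.1%) overlapped a wider region of the combined list, 509 (47.3%) overlapped a narrow one and 6 overlapped none. Of the 1157 in replicate 2, 853 (73.7%) overlapped a wider combined region, 293 (25.3%) overlapped a narrow one and 11 overlapped none. These wider combined regions had median widths of 2742 bp for replicate 1 and 3134 bp for replicate 2. They held several regions of the same list for 191 of the 561 (34.0%) and for 325 of the 853 (38.1%). A narrow region of a single library thus often overlapped a longer combined region, which in most of these cases held no other region of that library's list. Between the replicates, 552 narrow regions of replicate 1 (51.3%) overlapped a region of replicate 2, and 929 narrow regions of replicate 2 (80.3%) overlapped a region of replicate 1. The regions were narrow in both lists for 383 of each, 35.6% of the narrow list of replicate 1 and 33.1% of that of replicate 2. No such shares were computed over all regions of each replicate list, so these values do not single out narrow regions.

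The distance from unsupported members to the replicate lists was measured next. For the 807 members supported by neither, the nearest region of either replicate list was a median of 2278 bp away (quartiles 780 and 5348 bp). It lay within 1 kb for 238 of them (29.5%) and more than 10 kb away for 112 (13.9%). The 377 members supported by replicate 1 alone had the nearest replicate 2 region at a median of 4118 bp, and 66 of them (17.5%) had it within 1 kb. The 149 supported by replicate 2 alone had the nearest replicate 1 region at 2147 bp, and 44 (29.5%) had it within 1 kb. In each of these sets, most members thus had no region within 1 kb in the list or lists that did not support them. These distances are not given for wider regions without support, so they do not single out narrow regions.

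The authors deposited a score for each region without stating its scale. The scores behaved as log2 values of a ratio of whole numbers times a constant of each list, a form found for 8218 of the 8219 enriched regions of the combined list, 7601 of 7601 in replicate 1 and 7401 of 7401 in replicate 2. The constants, on the log2 scale, were -0.08, -0.28 and 0.19, so score levels are compared within a list only. Score goes with width in these lists, and the scores below describe the members without a test. The median score of the members was 0.33 (quartiles 0.29 and 0.36), against 0.71 for mid-width and 1.13 for broad regions of the same arms. In the replicate lists narrow regions had medians of 0.44 in replicate 1 and 0.50 in replicate 2, against 0.88 and 0.90 for the wider regions of those lists. The median of narrow regions was thus the lower one in each list. The members nevertheless held the highest score of all autosomal combined regions, 2.92, and the member at 2.17 was also above the highest scores of mid-width (1.87) and broad (2.05) regions.

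Within the members, score did not simply go down with width. The median was 0.38 at 1000 to 1099 bp, 0.29 at 1400 to 1599 bp and 0.35 at 1900 to 1999 bp. Support did not follow the score either. Among the 20% of members with the lowest scores (0.0047 to 0.27), neither list supported 134 of 297 (45.1%). Among the 20% with the highest scores (0.37 to 2.92), neither list supported 214 of 296 (72.3%) and both supported 16 (5.41%). The median width was 1539 bp for the former and 1228 bp for the latter. At widths of 1700 to 1999 bp, the median score was 0.32 for the 143 members supported by both lists (quartiles 0.29 and 0.35). For the 89 supported by neither it was 0.33 (quartiles 0.31 and 0.36). At 1302 to 1699 bp the median was 0.23 for the 7 members supported by both lists (quartiles 0.21 and 0.26) and 0.30 for the 312 supported by neither (0.26 and 0.35). Members supported by both lists thus did not have the higher scores in either band. They leaned to the wider end of each band, so width was not matched. At 1900 to 1999 bp stood 79 of the 143, against 21 of the 89, and all 7 measured at least 1546 bp.

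**Figure D2:**
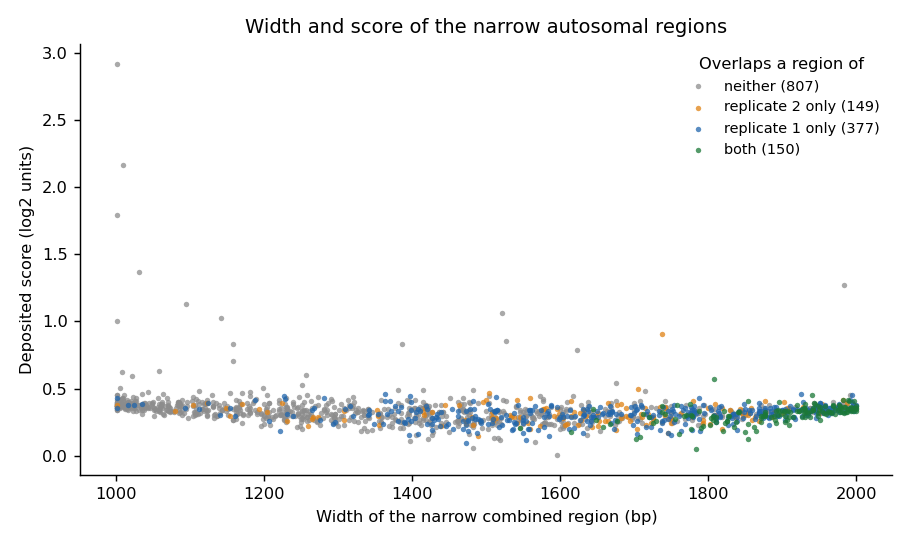
Width in bp against the deposited score of the combined list in log2 units for the 1483 narrow autosomal regions, 1 point each, coloured by the replicate lists that a region overlaps. Most points lie in a band around 0.33, and the 19 points above 0.57 include 18 that overlap neither list. Of all 1483 points, 807 overlap neither list, and 13 of the 19 are narrower than 1302 bp.

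The highest scores belonged to members that neither replicate list held. The highest was on 3L at 19764437 to 19765437 (1001 bp), with a combined score of 2.92. It was followed by 2L at 4608158 to 4609166 (1009 bp, score 2.17) and 2L at 11316706 to 11317706 (1001 bp, score 1.79). Next came 2R at 15603384 to 15604414 (1031 bp, score 1.37) and 3R at 8295743 to 8297726 (1984 bp, score 1.27). None of these 5 overlapped a region of either replicate. The whole-number ratios behind the scores, in lowest terms, were 8 to 1, 19 to 4, 11 to 3, 30 to 11 and 23 to 9. Over all members the medians were 337 for the upper and 253 for the lower number. Above 0.57, the highest score of a member supported by both lists, stood 19 members. Of these, 18 had no support and 1 overlapped replicate 2. This cut-off fixes that none had support from both. The median width of the 19 was 1141 bp, and 13 were narrower than 1302 bp. At any score, 406 of the 445 members below that width had no support. The median ratio numbers of the 19 were 64 and 29. Of the 19, 16 had an upper number under 100, as had 236 (15.9%) of all members. What the whole numbers count is not stated by the authors, and a ratio in lowest terms can stand for larger counts. The part of low counts in these scores was not tested.

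The surroundings of these high-scoring members differed. The member with score 2.92 lay 270 bp from a combined region of 5074 bp whose score was 0.82, and the nearest replicate regions began 409 bp away in replicate 1 and 593 bp away in replicate 2. The 2L member with score 2.17 lay 144 bp from a region of 2146 bp with score 0.40. The 3R member lay 584 bp from a region of 3312 bp with score 1.14, and its other wider neighbour was 1150 bp away. The second 2L member had its nearest wider region at 6367 bp, and the 2R member at 43693 bp. Of the 5, 3 thus had a wider combined region within 1 kb and 2 had none.

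Members supported by both lists had combined scores of at most 0.57. The highest lay on 2R at 356404 to 358211 (1808 bp, combined score 0.57), with 0.80 over 1741 bp in replicate 1 and 1.05 over 1523 bp in replicate 2. It was also among the members farthest from a wider region, 121613 bp on one side and 219966 bp on the other, in sequence near the centromere end of the arm. The ratio behind its combined score was 11 to 7. On 3L at 3891609 to 3893548 (1940 bp, 0.45) the replicates gave 0.43 and 0.72, and wider regions lay 2831 bp and 2907 bp away on either side. On 3R at 11138390 to 11140371 (1982 bp, 0.41) they gave 0.62 and 0.58, with a wider region 378 bp away. The highest on 2L was at 10761726 to 10763645 (1920 bp, 0.38), with 0.53 in replicate 1 and 0.82 in replicate 2, and lay 860 bp from a region of 15484 bp. Each of these partners was under 2000 bp in both replicate lists. Each list has its own score constant, so these levels are not compared between lists.

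**Figure D3:**
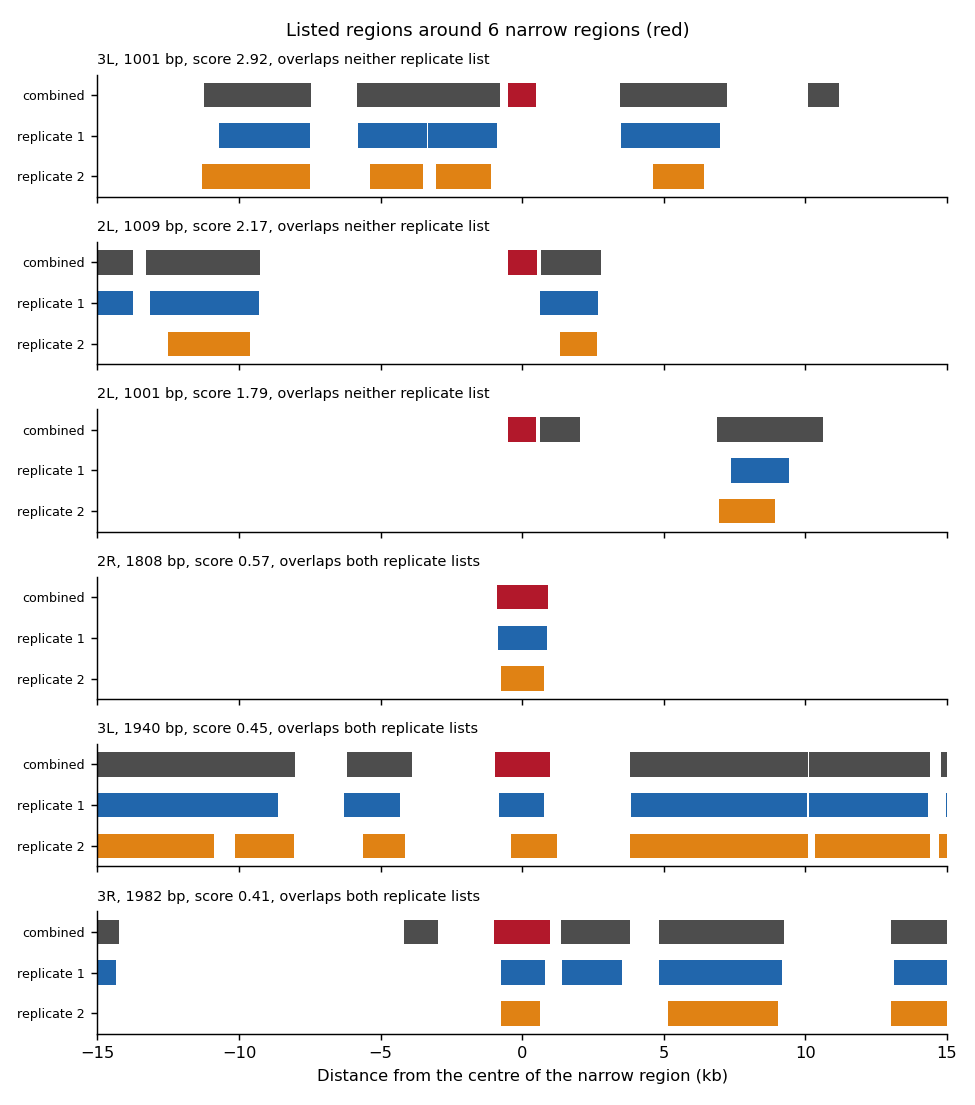
Regions of the combined list and of each replicate list within 15 kb of 6 narrow regions (red), by distance in kb from the centre of the narrow region; the upper 3 panels show the highest-scoring members, the lower 3 the highest-scoring members that overlap both replicate lists. The upper members have no replicate region beneath them, and the 2R member in the fourth panel has no other listed region within 15 kb.

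The next question was how the members lay relative to wider regions. From edge to edge, the nearest combined region of at least 2000 bp was a median of 2713 bp away (quartiles 770 and 7774.5 bp). In the replicate lists, taken alone, replicate 1 gave 2580 bp and replicate 2 gave 2720 bp, or 2650 bp ± 99.0 (SD, n = 2). A wider region lay within 1 kb of 431 members (29.1%) and on both sides within 1 kb of 45 (3.03%), while 296 (20.0%) had none within 10 kb and 36 (2.43%) had none within 50 kb. Wider regions were closer to each other than the members were to them. From a wider region, the median distance to the next was 1582 bp in the combined list, and 1670 and 1724 bp in the replicate lists. The distances are not alike, because a member must itself fit into a gap. In the combined list, 1049 gaps between wider regions measured at most 1000 bp and could hold no member. By width, the median distance was 2689.5 bp for members of 1000 to 1499 bp, 2756 bp for members of 1500 to 1999 bp, 1728 bp for regions of 2000 to 2999 bp and 1325 bp for regions of at least 10000 bp. In each list the difference between narrow and wider regions was larger than the spread of 99.0 bp between replicates.

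Members near to and far from a wider region had similar scores and widths. Among the 25% of members nearest to a wider region (0 to 769 bp), the median score was 0.33 and the median width 1504 bp. Among the 25% farthest away (7780 to 503274 bp), these were 0.33 and 1559 bp. Both lists supported 33 of 371 members (8.89%) among the nearest and 52 of 371 (14.0%) among the farthest, with 10.2% and 7.32% in between. The nearest wider region had a higher score than the member in 1428 of 1483 cases (96.3%). Wider regions score higher in general: the upper decile of member scores was 0.40 and the lower decile of mid-width scores 0.41. The nearest wider regions had a median score of 0.68, against 0.78 for all wider regions. The nearest wider region measured 10000 bp or more for 229 members (15.4%), and 16.0% of all wider regions are that broad. Proximity to broad domains was thus close to their share among wider regions. The nearest wider region lay towards lower coordinates for 752 members (50.7%).

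Per length of sequence outside wider regions, the members were densest beside wider regions. At 1 to 2 kb from a wider region there were 59.0 member midpoints per Mb, at 2 to 5 kb 39.3, at 5 to 10 kb 24.8, at 10 to 20 kb 15.9, at 20 to 50 kb 8.73 and beyond 50 kb 5.03. Within 1 kb the density was 19.3 per Mb, where a region at least 1001 bp wide can seldom have its midpoint. The replicate lists, each with its own narrow and wider regions, gave 48.7 ± 4.48 per Mb at 1 to 2 kb, 30.2 ± 1.46 at 2 to 5 kb, 17.7 ± 1.48 at 5 to 10 kb, 11.8 ± 0.208 at 10 to 20 kb, 5.92 ± 0.352 at 20 to 50 kb and 3.02 ± 0.0845 beyond (SD, n = 2). From 1 kb outwards, each step down was larger than the SD between replicates and was seen in both lists. How much of the far sequence can be mapped by reads was not computed, and its part in the decline was not tested.

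**Figure D4:**
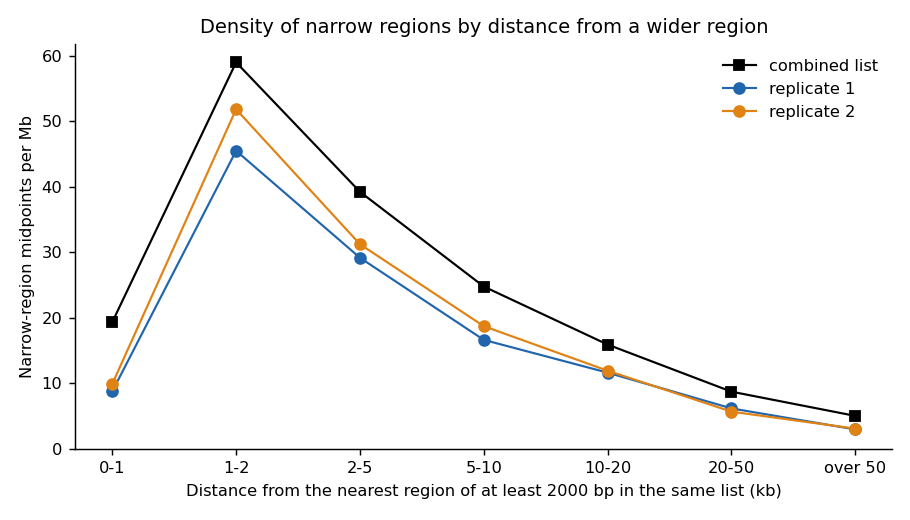
Narrow-region midpoints per Mb of sequence outside wider regions, by distance in kb from the nearest region of at least 2000 bp of the same list, for the combined list and each replicate list. All 3 lists peak at 1 to 2 kb and decline with distance, from 59.0 to 5.03 per Mb in the combined list.

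Seen from the wider regions, 1031 of the 4973 gaps between neighbouring wider regions (20.7%) held at least 1 member. Of the 4973, 1049 measured at most 1000 bp, too short for a member. Gaps of 2000 to 4999 bp held one in 151 of 1082 cases (14.0%), gaps of 10000 to 19999 bp in 243 of 596 (40.8%) and gaps of at least 50000 bp in 165 of 291 (56.7%). The longest gap between wider regions measured 343387 bp. Long gaps were thus often interrupted by narrow regions, although members were sparse per length there.

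At the extremes, 1 member touched a wider region without a base between them, on 3L at 14414140 to 14416093 (1954 bp, score 0.34). Its replicate partners scored 0.43 and 0.48 and its neighbour measured 2343 bp. The next nearest were 2 bp from a wider region, on 3R at 4481220 to 4482403 (score 0.39, no support) and on 3R at 4956472 to 4958459 (score 0.32, with 0.39 and 0.44 in the replicates). The latter filled most of the space between wider regions, the other being 48 bp away. The farthest were on 3L near the centromere end of the arm, at 24527814 to 24529660 (score 0.28) and at 24224002 to 24225643 (score 0.26), which lay 503274 and 199462 bp from the nearest wider region. Both overlapped replicate 1 only, with scores of 0.40 and 0.36 there.

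About as many members stood alone between wider regions as stood with others. Between wider regions, 736 members (49.6%) were single, 388 (26.2%) were in pairs and 359 (24.2%) were in runs of 3 or more. Of the 450 pairs of neighbouring members, 83 (18.4%) were within 1 kb of each other, and the median gap was 4645 bp. The longest runs held 7 members. On 3L from 10786039 to 10810298 (24260 bp) the 7 members scored 0.27 to 0.43 and none had support in a replicate list. On 3L from 14441397 to 14525558 (84162 bp) both lists supported 2 of 7, single lists supported 3 and neither supported 2, with scores of 0.18 to 0.35. On 3R from 374647 to 436583 (61937 bp) both lists supported 1, replicate 1 supported 1 more and neither supported 5, with scores of 0.24 to 0.79. Runs of equal length thus ranged from no support to support for most of their members.

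The arms were compared over the replicate lists. Narrow regions numbered 12.4 ± 0.115 per Mb on 3L, 12.2 ± 1.01 on 2L, 11.0 ± 0.435 on 2R and 10.7 ± 0.786 on 3R (SD, n = 2). In each library the values of 2L and 3L were above those of 2R and 3R, while 2L and 3L overlapped each other, as did 2R and 3R. The density on 2R was 0.936 times that on 2L in replicate 1 and 0.879 times in replicate 2, or 0.908 ± 0.0398. In the combined list this difference was nearly gone, with 15.2 per Mb on 2R, 15.3 on 2L and a ratio of 0.993, while 3L had 16.9 and 3R had 14.1. As a share of all regions of the arm, narrow regions made up 21.0% ± 2.34 on 2L, 19.9% ± 0.712 on 3L, 17.5% ± 1.54 on 3R and 17.0% ± 0.979 on 2R. Support by both lists ranged from 7.76% of members on 2R to 11.2% on 3R, with overlapping intervals (5.09 to 11.2 and 8.23 to 14.7).

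Towards the centromere, narrow regions were a larger share of the listed regions on 3 of the 4 arms. In the last 2 Mb of the assembled arm they made up 30.2% ± 0.744 of the regions of 2L, while elsewhere on that arm they made up 20.4% ± 2.57 (SD, n = 2). On 2R these shares were 31.5% ± 1.89 and 16.3% ± 0.990, and on 3L 31.8% ± 8.51 and 19.7% ± 0.949. The end of 3R had the smaller share, 14.4% ± 0.757 against 17.9% ± 1.63. Each direction was the same in both libraries, and each difference exceeded the spread between replicates, although on 3L the end held 14 narrow regions in replicate 1 and 8 in replicate 2. The number per Mb did not follow the share. It was 12.8 ± 1.06 against 12.1 ± 1.21 on 2L, 10.8 ± 0.354 against 11.1 ± 0.517 on 2R and 11.5 ± 0.707 against 10.6 ± 0.792 on 3R, and lower at the end of 3L, at 5.50 ± 2.12 against 13.0 ± 0.314. On 2L and 2R the densities in the replicate lists differed by less than the spread. In the combined list the members numbered 20.0 per Mb at the end of 2L against 14.9 on the rest, and 11.0 at the end of 2R against 15.7. Members at this end lay a median of 4546 bp from a wider region on 2L, 11456 bp on 2R and 15328 bp on 3L, against 2756, 2592 and 2693 bp on the rest of those arms. On 3R they lay closer, at 2142.5 bp against 2455.5 bp. The smallest p of a two-sided exact sign-flip test with 4 arms is 0.125, and no test was made.

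**Figure D5:**
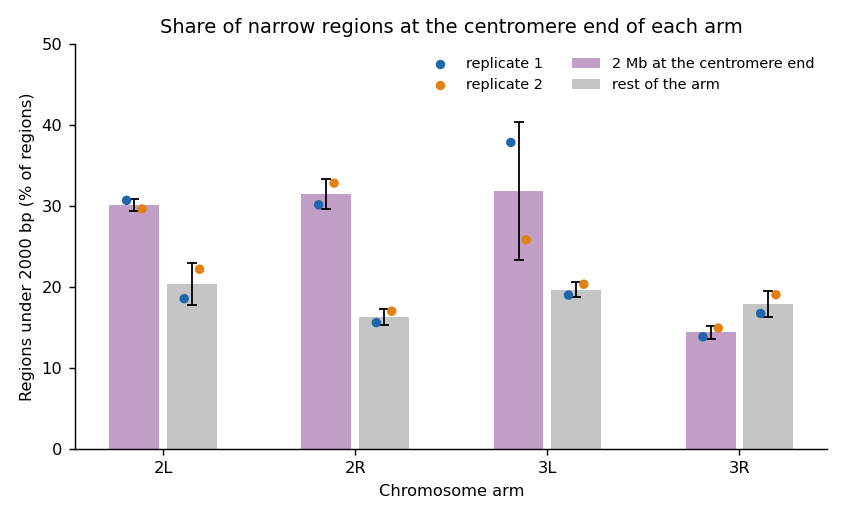
Share of regions narrower than 2000 bp among all regions (%), in the last 2 Mb of each assembled arm at the centromere end and in the rest of the arm; bars are means of the replicate lists, error bars the SD (n = 2) and points the single lists. The share is higher at the centromere end on 2L, 2R and 3L (30.2%, 31.5% and 31.8%) and lower on 3R (14.4% against 17.9%).

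Position against genes and sequence content are not given. Gene coordinates were given for release 6, the regions lie on release 5, and positions were not carried from one to the other, so the members go without gene names.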

How the data were processed

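The authors deposited a list of enriched regions for each ChIP library and a combined list, with positions on FlyBase release 5 per the file headers. Bowtie 0.12.7 is named in the submitters' processing notes. The calling and combining of regions and the read depth were not given in the sources used here. The deposited score was taken as log2, per list, from its values: whole-number ratios were sought (denominator at most 20000, relative tolerance 2e-13), and the constant was set so that small primes divide upper and lower numbers equally often. With natural logarithms 2, 4 and 3 scores had this form in the combined list, replicate 1 and replicate 2, and with base 10 logarithms 1, 6 and 2.

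Overlaps, distances (edge to edge) and exact Clopper-Pearson intervals were computed with Python 3.11.15, pandas 2.3.3, NumPy 2.4.6 and SciPy 1.17.1. Steps were tested on simulated data made from the 6460 autosomal regions, where 100% of kept regions and of whole-number ratios were recovered. Kept regions were shifted by less than their width, so their recovery was certain, and false overlaps were not examined. No significance test was run. With lists of a single group of 2 libraries there was none to make between conditions, and width, which chose the members, goes with score and support. The members and measures were chosen with earlier results of these data known. Named regions follow a rule: the highest scores overall and by support and arm, the extremes of distance and width, and the longest runs; the table of the 19 highest scores was added after the values were seen. Windows of 1 Mb were kept if at least 500000 bp long.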

Additional observations from a re-analysis of the deposited data

Results flagged for a closer look

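Narrow regions also occurred on sequences that the comparisons above leave out. The combined list had 36 regions under 2000 bp among the 73 on 7 heterochromatic and unplaced sequences. These are given here because no comparison used those sequences. They were 49.3% of the regions there, against 23.0% on the autosomal arms, with 18 of 47 in replicate 1 (38.3%) and 19 of 41 in replicate 2 (46.3%). Their density was 1.86 per Mb, against 15.4 per Mb on the autosomal arms. How much of these sequences reads can map to was not examined.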

How the results depend on the processing

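The members overlapping both lists (10.1%) became 0% with an upper width of 1500 bp, 43.7% with 3000 bp and 14.5% among members at least as wide as the shortest region of both replicate lists; with either list alone, the share supported was 20.2% to 35.5%. The share overlapping neither (54.4%) became 82.0% with 1500 bp, 29.8% with 3000 bp, 38.6% for that lower bound, 61.2% for scores at or above the median and 64.5% to 79.8% with either list alone. Narrow regions were 23.0% of regions, but 17.9% to 19.8% in either replicate list, 20.2% after joining regions less than 500 bp apart, 11.0% with 1500 bp and 44.3% with 3000 bp. The median distance to a wider region (2713 bp) was 6574.5 bp between midpoints, 33117 bp to regions of at least 10 kb, 3321 bp for members supported by both lists and 2580 to 2720 bp in either list. The median score (0.33) was 0.44 to 0.50 in either list, which have other constants, and 0.38 with 3000 bp. The density on 2R over 2L (0.908) was 0.993 in the combined list, a choice made after the data were seen, as was the lower width bound. Among 41 alternative values, 17 stayed within the exact interval or the SD between lists and 24 lay outside it. Of these results, only the density on 2R over 2L has a direction that could change, and 2R was the lower in each setting. The changes with width bounds follow from which regions are counted. The share of regions at gene starts was not run, since no annotation of release 5 was at hand. Read depth was not known and limits how far weak regions can be judged. No paired analysis was possible because the input libraries have no list and no test was run between groups that share replicate numbers.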

Other observations

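Along the arms, the number of narrow regions was set beside the coverage by wider regions. Over 97 windows of 1 Mb on 2L, 2R, 3L and 3R, the combined list had 3 to 27 members per window, with a median of 15. The windows with the most, 27 each, were 2L from 19000001 to 20000000, 3L from 10000001 to 11000000 and 3L from 14000001 to 15000000. Those with the fewest, 3 each, were 3R from 20000001 to 21000000, 3R from 24000001 to 25000000 and the shorter last window of 3L, from 24000001 to 24543557. Across windows, the density of narrow regions in replicate 1 against that in replicate 2 had a Pearson's r of 0.51 and a Spearman's rho of 0.45. For the share of the window covered by wider regions, both were 0.99. The density of members against that covered share gave an r of 0.14 and a rho of 0.10 in the combined list. This density is per length of the whole window, although members cannot lie in sequence that wider regions cover. No coefficient was computed for the density outside that sequence against the covered share, so whether those 2 go together is not answered here. These coefficients are descriptions over windows that share the same libraries. Counts of a few regions per window vary more than a covered share.

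On X, 378 of 1547 combined regions (24.4%) were under 2000 bp, at 16.9 per Mb, with 17.7% in replicate 1 and 22.1% in replicate 2, close to the autosomal arms. On chromosome 4, 60 of 139 (43.2%) were, at 44.4 per Mb, with 38.8% in replicate 1 and 40.4% in replicate 2.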
